A study of Homo sapiens with 4 samples.

Results

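The genes described here are 10 regulators of plasma cells and myeloma. They are the transcription factors IRF4, PRDM1, XBP1, IKZF1, IKZF3, MYC, MAF and PAX5, the coactivator POU2AF1, and CRBN (cereblon), the ubiquitin ligase receptor through which myeloma drugs act on IKZF1 and IKZF3. Each was found by its symbol, in 1 row each, among the 16057 genes of the deposited RNA sequencing table. MM.1S cells, a long-established myeloma line of human origin, were treated for 26 h with 350 nM JG342, an allosteric inhibitor of the HSP70 chaperones, or with the solvent DMSO. The series describes the 2 libraries of each treatment as biological duplicates, and all 4 come from this 1 line. Levels are given in TPM (transcript counts scaled for transcript length and library total), so that genes can be set side by side. No depth is recorded in this unit.

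Plasma cells arise from B cells when IRF4 and PRDM1 (also called Blimp-1) switch off the B cell programme that PAX5 maintains. XBP1 then builds up the endoplasmic reticulum for antibody secretion. Myeloma cells depend on IRF4, which binds regulatory DNA of MYC, and MYC in turn drives genes of growth and ribosome assembly. IKZF1 and IKZF3, zinc finger factors of the Ikaros family, sustain IRF4 in myeloma, and drugs such as lenalidomide make cereblon destroy both proteins. MAF is overexpressed in a subset of myelomas through a translocation to the immunoglobulin heavy chain locus, and MM.1S carries that translocation.

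After JG342, IRF4 and PRDM1 rose and MYC and MAF fell, while XBP1, IKZF1, IKZF3, POU2AF1 and CRBN did not pass the test. PAX5 was below the level at which genes were tested. The 4 genes that passed did so in limma fitted to the 12042 genes that averaged 1 TPM or more, at a Benjamini-Hochberg adjusted p under 0.05. In that fit 18.4% of all genes passed, 10.8% as higher and 7.62% as lower. The calls of IRF4 and MYC held under each of the 13 alternative settings and omissions of a library, whereas those of PRDM1 and MAF were lost under 7 and 6 of them.

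**Figure D1:**
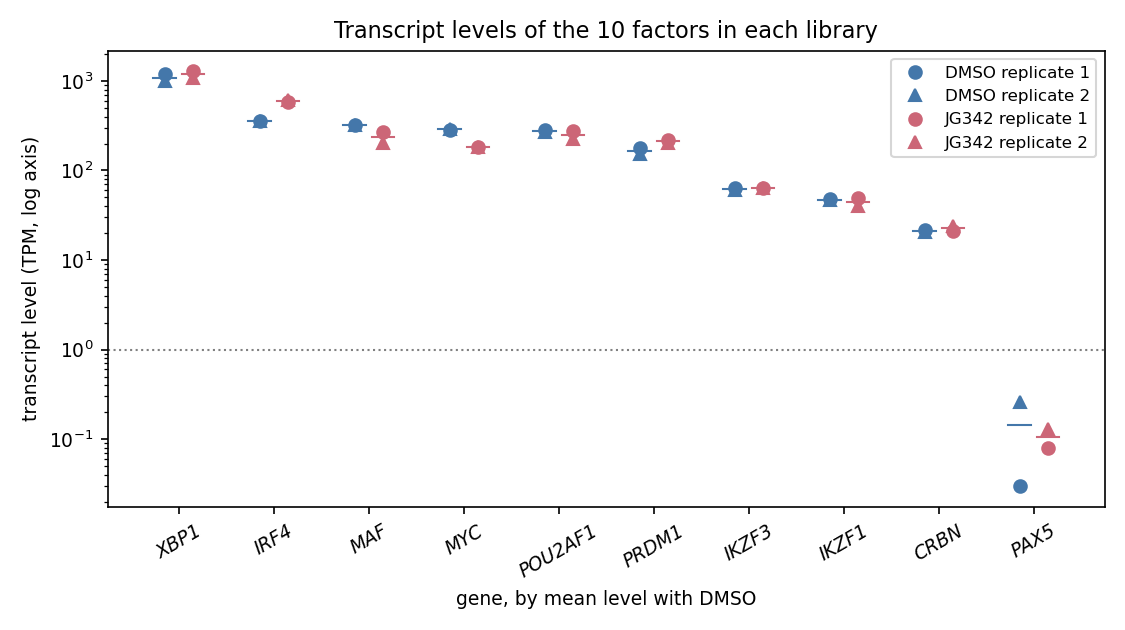
Transcript level of each of the 10 genes in TPM on a log axis, with 1 point per library, the mean of each treatment as a bar, and a dotted line at 1 TPM. The JG342 points of IRF4, at 588.51 and 615.17 TPM, lie above both DMSO points, those of MYC, at 181.12 and 181.80 TPM, lie below both, and all PAX5 points lie under 1 TPM.

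With DMSO the 10 genes covered a wide range of levels. XBP1 was the highest, at 1184.74 and 997.39 TPM, at percentile 99.2 of all genes in the table. IRF4, MAF, MYC and POU2AF1 followed at means of 352.76, 321.86, 287.975 and 274.22 TPM, and PRDM1 at 165.26 TPM. IKZF3, IKZF1 and CRBN stood lower, at 61.975, 47.195 and 21.06 TPM. No 2 neighbours in this order overlapped between the DMSO libraries. With JG342 the order changed in the middle of the range. XBP1 and IRF4 kept places 1 and 2, POU2AF1, MAF and PRDM1 came next with overlapping libraries between neighbours, and MYC moved from place 4 to place 6. By mean level, IRF4 went from rank 390 to rank 207 among the 16057 genes and MYC from rank 484 to rank 796.

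The libraries carried the transcripts of plasma cells. All 6 plasma cell markers (SDC1, TNFRSF17, CD38, SLAMF7, JCHAIN and MZB1) were above 0 in every library. Their summed level was 13065.93 to 13121.45 TPM with DMSO and 8118.87 to 8584.7 TPM with JG342, most of it JCHAIN. Without JCHAIN the other 5 summed to 2682.47 to 3214.29 TPM with DMSO and 2687.89 to 2853.18 TPM with JG342, which overlap. Of 3 B cell markers, 2 are in the table, and their sum was at most 1.41 TPM. Of 10 markers of T, myeloid, erythroid, epithelial and stromal cells, 9 are in the table. They summed to 52.31 to 62.85 TPM with DMSO and 54.77 to 63.37 TPM with JG342, most of it LYZ at 36.96 to 46.16 TPM. Their part in the results was not tested. Totals lay between 994463 and 994718 TPM, and no library stood apart (Pearson's r across genes 0.992 between the DMSO and 0.990 between the JG342 libraries).

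Promoter sequences of 7 of the 10 genes were used, from RefSeq (GRCh38.p14). IKZF3 and POU2AF1 had no entry in the promoter set. The promoter of MYC was left out of the search by its chromosome and was not examined. Those of IRF4 and PRDM1, which rose, MAF, which fell, and XBP1, which did not pass, are printed to show how unlike in sequence these promoters are. Each window runs from 250 to 31 bases before the annotated start, 5′ to 3′ along the gene. The positions are chr6:391502-391721 (plus strand) for IRF4, chr6:106086086-106086305 (plus strand) for the upstream start of PRDM1, chr16:79600768-79600987 (minus strand) for MAF and chr22:28800600-28800819 (minus strand) for the upstream start of XBP1. Capitals mark matches to the motifs searched.
IRF4: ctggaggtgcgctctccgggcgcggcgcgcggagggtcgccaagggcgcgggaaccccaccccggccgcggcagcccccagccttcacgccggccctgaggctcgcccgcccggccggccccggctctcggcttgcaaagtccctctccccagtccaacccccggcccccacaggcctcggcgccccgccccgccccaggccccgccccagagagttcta
PRDM1: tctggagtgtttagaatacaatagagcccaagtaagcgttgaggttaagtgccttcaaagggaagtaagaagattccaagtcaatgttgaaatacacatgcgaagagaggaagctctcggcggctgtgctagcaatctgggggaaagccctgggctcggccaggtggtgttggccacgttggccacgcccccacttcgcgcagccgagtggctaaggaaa
MAF: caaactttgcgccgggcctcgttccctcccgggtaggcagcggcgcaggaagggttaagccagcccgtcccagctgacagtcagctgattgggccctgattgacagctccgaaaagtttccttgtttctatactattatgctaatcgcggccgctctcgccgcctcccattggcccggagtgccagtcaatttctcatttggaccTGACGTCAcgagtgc
XBP1: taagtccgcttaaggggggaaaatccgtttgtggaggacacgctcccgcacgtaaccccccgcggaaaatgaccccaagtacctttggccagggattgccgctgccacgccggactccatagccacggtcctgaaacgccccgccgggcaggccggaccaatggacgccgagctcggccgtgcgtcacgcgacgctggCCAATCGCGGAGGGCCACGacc

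The window of IRF4 had a GC content of 79.5%, against 53.2% for PRDM1, 58.2% for MAF and 66.4% for XBP1, and a median of 57.7% over all 35116 windows. Searches on both strands used 10 motifs. Among these 4 windows, 2 matches were found. The MAF window held the cAMP response element TGACGTCA, starting 45 bases before the start, a motif in 1.27% of all windows. The upstream XBP1 window held the ER stress element, matched as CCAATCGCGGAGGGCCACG, starting 52 bases before the start, a motif in 0.0712% of all windows. Neither IRF4 nor PRDM1 had a match to the E-box CACGTG (5.4% of all windows), the interferon response element (2.59%), the ETS-IRF composite element (2.07%) or the octamer ATGCAAAT (1.49%). The UPR element TGACGTGG (0.538%), the C/EBP-ATF element TGATGCAAT (0.199%), the Ikaros core TGGGAA (18.8%) and the MAF half-site TGCTGAC (3.06%) had no match in any of the 4 windows. The composite and interferon motifs can overlap. A match is a description of the letters, and bound factors were not measured.

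IRF4 is an interferon regulatory factor that plasma cells need to form and to survive. Its level was 352.88 and 352.64 TPM in DMSO replicates 1 and 2, and 588.51 and 615.17 TPM in JG342 replicates 1 and 2. The treatments did not overlap, and the DMSO libraries were nearly equal. The mean rose from 352.76 ± 0.17 TPM (SD, n = 2) to 601.84 ± 18.9 TPM, 1.71 times the DMSO level. On the log2(TPM + 1) scale the rise was 0.77 ± 0.09 SE, with a 95% interval from 0.57 to 0.97 (limma adjusted p 0.000986). It was 0.74 between the libraries numbered 1 and 0.80 between those numbered 2. Without each library in turn it ranged from 0.74 to 0.80. By p, IRF4 ranked 133 among the 12042 fitted genes. In bulk RNA, more cells that express a gene and more RNA per cell cannot be told apart. With 2 libraries against 2, an exact two-sided permutation test of a single gene cannot go below 0.33, so the tests rest on the spread that limma shares across genes.

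The genes nearest to IRF4 in their pattern over the 4 libraries were SMC6, ACAD11 and RNF181. Nearness was the Euclidean distance between log2(TPM + 1) values centred on each gene's mean, over 9813 genes that averaged 5 TPM or more. The distances were 0.0389 for SMC6, 0.0397 for ACAD11 and 0.0446 for RNF181, and 188 genes lay within 0.2. SMC6, a subunit of a complex that maintains chromosomes, stood at 28.90 and 28.09 TPM with DMSO and 47.17 and 49.44 TPM with JG342.

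Of the 8 other interferon regulatory factors, all were fitted, 2 rose and none fell, or 25% beside 18.4% of all genes. Their median log2 fold change was 0.29 against 0.03 for all fitted genes. IRF9, which forms the interferon-activated ISGF3 complex with STAT proteins, went from 13.06 and 8.85 TPM to 21.24 and 19.59 TPM, by 0.86 ± 0.18 SE (limma adjusted p 0.0122). IRF5, a factor of innate immune signalling, went from 80.24 and 76.00 TPM to 111.21 and 101.56 TPM, by 0.44 ± 0.10 (limma adjusted p 0.0183). IRF8, a factor of B cells and myeloid cells, was at 4.67 to 7.98 TPM and had a log2 fold change of 0.34, which is not past the threshold (limma adjusted p 0.244). In the fit with a replicate block, where 34.9% of all genes passed, 4 of the 8 did, all higher. With the block and equal medians, where 35.1% of all genes passed, 2 were higher and 1 lower. The count was 1 without DMSO replicate 1, 0 without DMSO replicate 2 and 1 without JG342 replicate 1, and it was 0 without the filter on low values and 1 without the trend in the variance model.

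PRDM1 encodes the repressor that shuts off B cell genes in plasma cells. It was at 176.50 and 154.02 TPM with DMSO and at 220.17 and 204.60 TPM with JG342. The treatments did not overlap, but the DMSO libraries lay farther apart than those of IRF4. The mean went from 165.26 ± 15.9 TPM (SD, n = 2) to 212.385 ± 11.01 TPM, a rise of 0.36 ± 0.10 SE on the log2 scale with a 95% interval from 0.13 to 0.60 (limma adjusted p 0.0410). The call was lost, though not the direction, without any 1 of the 4 libraries. Without DMSO replicate 1 it was 0.46 (limma adjusted p 0.0623), without DMSO replicate 2 it was 0.26 (0.266), without JG342 replicate 1 it was 0.31 (0.143) and without JG342 replicate 2 it was 0.42 (0.0534). It also missed the threshold after scaling to equal medians (0.30, limma adjusted p 0.0946).

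PAX5, which fixes B cell identity, was listed at 0.03 and 0.26 TPM with DMSO and at 0.08 and 0.13 TPM with JG342. These values overlapped, and no test was made. Among 18 B cell genes that PAX5 sustains or PRDM1 represses, 16 are in the table and 10 were fitted. ID3, an inhibitor of basic helix-loop-helix factors, was the 1 gene of these that passed, or 10% beside 18.4% of all genes. It fell from 10.26 and 16.36 TPM to 3.71 and 6.10 TPM, by −1.27 ± 0.25 SE (limma adjusted p 0.0102). The signalling subunit CD79B of the B cell receptor (31.22 and 23.66 TPM, then 21.03 and 15.54 TPM) missed the threshold at −0.56 (limma adjusted p 0.0584). It passed with the replicate block (limma adjusted p 8.24e-05), where 34.9% of all genes passed. The block fit took each gene's variance from its level alone, so its p-values do not reflect a gene's own spread. The MHC class II activator CIITA (8.37 to 11.06 TPM) had a log2 fold change of −0.29 (limma adjusted p 0.185). The median of the 10 genes was 0.000893 and turned negative after scaling to equal medians (−0.06). Without each library in turn it lay between −0.14 and −0.04. The count of the list was 0 without the filter on low values, where 828 of all genes passed, and 2 with the replicate block. With the block and equal medians it was 4, all lower. In that fit 35.1% of all genes passed, 1759 of them higher and 2467 lower.

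**Figure D2:**
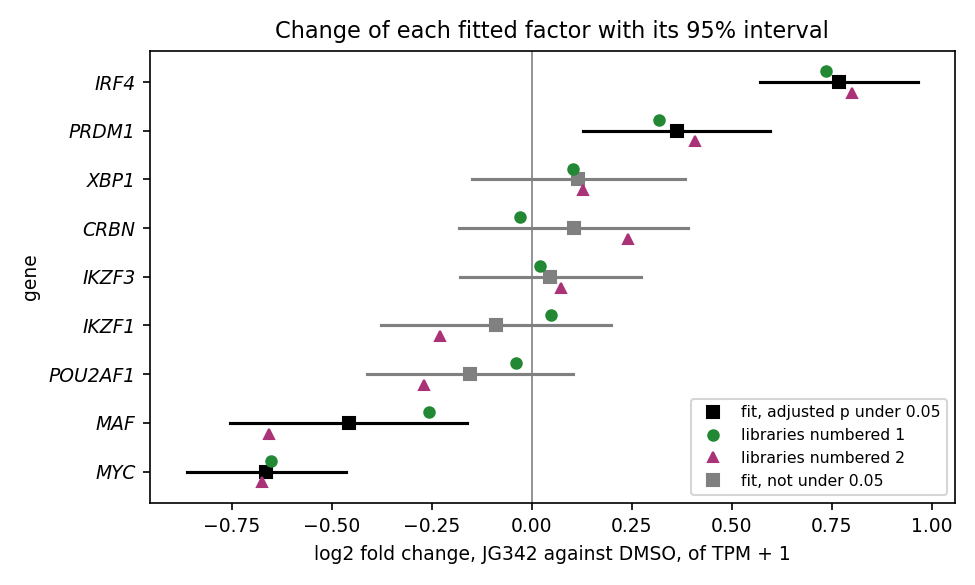
Log2 fold change of TPM + 1, JG342 against DMSO, for the 9 fitted genes. Squares give the fit with its 95% interval as a line, black where the adjusted p is under 0.05, and circles and triangles give the difference between libraries numbered 1 and between those numbered 2. The intervals of IRF4 and PRDM1 lie above 0 and those of MYC and MAF below it, and the pair values of MAF, −0.26 and −0.66, are the farthest apart.

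XBP1, the secretory factor, was at 1184.74 and 997.39 TPM with DMSO and at 1273.81 and 1090.10 TPM with JG342. The treatments overlapped, and in both the library numbered 1 was the higher. Its log2 fold change was 0.12 ± 0.12 SE, with a 95% interval from −0.15 to 0.38 (limma adjusted p 0.527). The active form of XBP1 is made by cutting a short piece out of its mRNA. XBP1 has 1 value per library, and whether it covers 1 transcript or the whole gene is not given. Spliced and unspliced mRNA therefore cannot be told apart.

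Many XBP1 target genes rose, although XBP1 itself did not pass. Of 33 genes of the endoplasmic reticulum and secretion known as XBP1 targets, 32 were fitted, 14 rose and none fell, and 29 had a positive log2 fold change. That share of 43.8% called stands beside 18.4% of all genes, and the median was 0.29 against 0.03. HERPUD1, a component of the degradation machinery of the endoplasmic reticulum, rose from 744.82 and 772.87 TPM to 1572.73 and 1362.39 TPM, by 0.95 ± 0.10 SE (limma adjusted p 0.000694). HYOU1, an HSP70-like chaperone of the endoplasmic reticulum, rose from 193.85 and 198.98 TPM to 376.85 and 325.95 TPM, by 0.83 ± 0.10 (limma adjusted p 0.00135). The co-chaperone DNAJB9, a standard readout of XBP1 splicing, rose from 80.34 and 64.38 TPM to 166.26 and 123.58 TPM, by 0.99 ± 0.16 (limma adjusted p 0.00434). The disulfide isomerase PDIA4 (393.11 to 401.62 TPM) and the co-chaperone DNAJB11 (282.10 to 309.96 TPM) overlapped between treatments, at 0.01 and 0.03. Several of these genes are also targets of ATF6 or ATF4. Without each library in turn the median of the list lay between 0.29 and 0.36. The count of 14 was 4 without the filter on low values, where 828 of all genes passed. It was 7 without the trend in the variance model, where 1508 did. After scaling to equal medians, where 2169 did, it was 11, and after quantile normalization, where 2000 did, it was 15. With the replicate block, where 34.9% of all genes passed, it was 21. With the block and equal medians, where 35.1% passed, it was 15.

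MYC was at 285.08 and 290.87 TPM with DMSO and at 181.12 and 181.80 TPM with JG342. The treatments did not overlap, and within each the libraries differed by less than 6 TPM. The mean fell from 287.975 ± 4.09 TPM (SD, n = 2) to 181.46 ± 0.481 TPM, or 0.63 times the DMSO level. On the log2 scale the change was −0.66 ± 0.09 SE, with a 95% interval from −0.86 to −0.46 (limma adjusted p 0.00206). It was −0.65 between the libraries numbered 1 and −0.68 between those numbered 2, and −0.68 to −0.65 without each library in turn.

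Genes that MYC is known to drive were mostly lower as well. Of 57 such genes, 55 were fitted, 32 fell and 1 rose, with a median of −0.39. That share of 60.0% called stands beside 18.4% of all genes, and 51 of the 55 had a negative log2 fold change. PA2G4, a growth-regulated protein of the nucleolus with known processed pseudogenes, fell from 520.33 and 566.25 TPM to 338.67 and 331.58 TPM, by −0.69 ± 0.09 SE (limma adjusted p 0.00197). The folate carrier SLC19A1 fell from 52.79 and 60.30 TPM to 29.42 and 33.01 TPM, by −0.84 ± 0.12 (limma adjusted p 0.00276). Nucleolar genes were among those that fell, with NCL at −0.53, NOP56 at −0.47 and NOLC1 at −0.44. The gene that rose was SUPV3L1, a mitochondrial RNA helicase, at 0.40 (limma adjusted p 0.0489). No gene of the list passed as higher after scaling to equal medians alone or quantile normalization. None did either with 0.1 rather than 1 added to TPM, without the filter on low values or without the trend. SUPV3L1 did pass with the replicate block (limma adjusted p 0.000707) and with the block and equal medians (limma adjusted p 0.0115). NPM1 (nucleophosmin) and CDK4 did not pass, at −0.15 and 0.13. Without each library in turn the median of the list lay between −0.43 and −0.31. The count of 33 called genes was 11 without the filter on low values, where 828 of all genes passed. It was 14 without the trend, where 1508 did, and 27 after quantile normalization, where 2000 did. After scaling to equal medians, where 2169 did, it was 36. With the replicate block, where 34.9% of all genes passed, it was 43. With the block and equal medians, where 35.1% passed, it was 46.

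Of 20 listed partners and antagonists of MYC, 19 are in the table and 17 were fitted, of which 2 rose and none fell, a share of 11.8% beside 18.4% of all genes. FBXW7, the ubiquitin ligase subunit that marks MYC protein for degradation, rose from 21.32 and 20.39 TPM to 41.99 and 34.67 TPM, by 0.84 ± 0.13 SE (limma adjusted p 0.00383). MXD1, which competes with MYC for the partner MAX, rose from 6.30 and 6.49 TPM to 10.41 and 9 TPM, by 0.53 ± 0.15 (limma adjusted p 0.0423). MAX itself was at 40.50 to 48.49 TPM and overlapped between treatments. MYCN and MYCL, the relatives of MYC, stayed under 3 TPM. With the replicate block, where 34.9% of all genes passed, 5 genes did, 2 of them higher and 3 lower. After scaling to equal medians 4 passed, 1 of them higher and 3 lower. The count was 1 without DMSO replicate 1, without DMSO replicate 2 or without JG342 replicate 1, and 1 as well without the filter on low values or after quantile normalization.

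**Figure D3:**
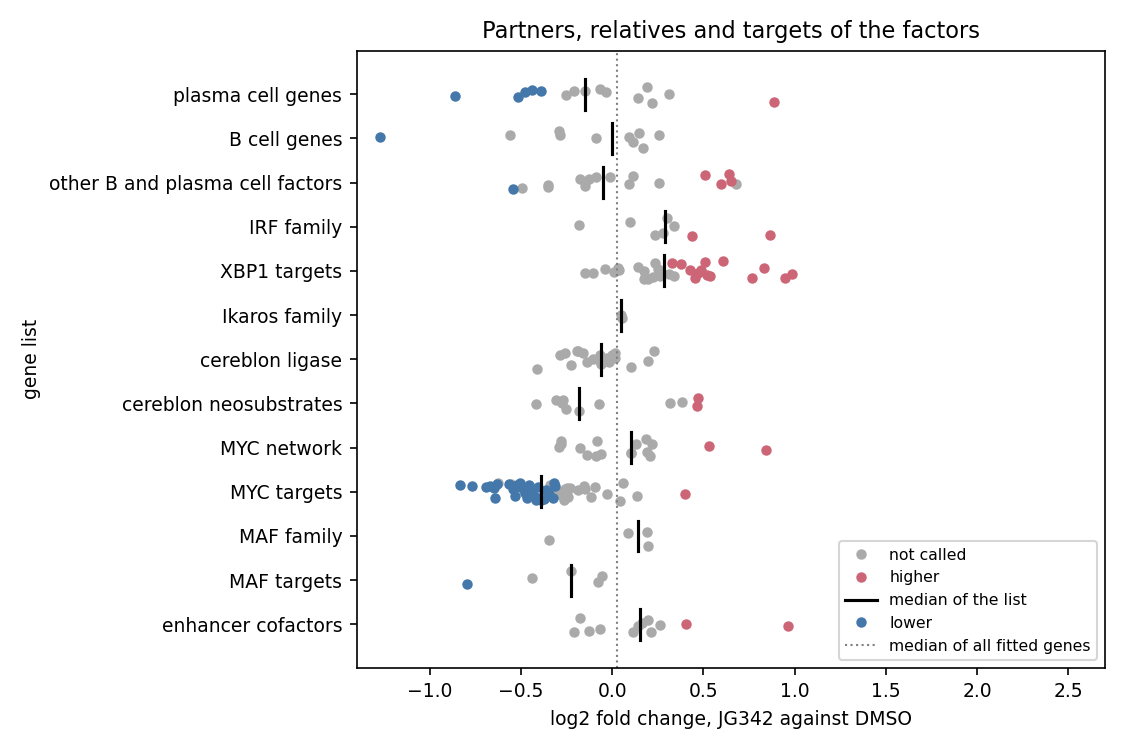
Log2 fold change, JG342 against DMSO, of the fitted genes in 13 lists of relatives, partners and targets, with genes past the threshold in colour, the median of each list as a bar, and the median of all fitted genes as a dotted line. Most points of the MYC target list lie left of 0, around its median of −0.39, and most of the XBP1 target list right of 0, around 0.29.

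Cofactors of enhancer-driven genes, such as the bromodomain proteins that MYC expression in myeloma is known to need, were listed for 12 genes, all fitted. BRD3 rose from 8.78 and 7.15 TPM to 17.14 and 15.76 TPM, by 0.97 ± 0.15 SE (limma adjusted p 0.00401). CCNH, a subunit of the CDK-activating kinase, rose from 35.38 and 31.68 TPM to 42.90 and 46.59 TPM, by 0.41 ± 0.12 (limma adjusted p 0.0406). These 2 of 12 genes are 16.7%, near the 18.4% of all genes. In each fit without 1 of the 4 libraries, without the filter on low values, without the trend, after scaling to equal medians or after quantile normalization 1 gene passed.

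IKZF1 (Ikaros) was at 47.76 and 46.63 TPM with DMSO and at 49.41 and 39.66 TPM with JG342. The JG342 libraries lay on either side of the DMSO libraries. Its log2 fold change was −0.09 ± 0.13 SE, with a 95% interval from −0.38 to 0.20 (limma adjusted p 0.663), and it was 0.06 without JG342 replicate 2. IKZF3 (Aiolos) was at 63.37 and 60.58 TPM with DMSO and at 64.28 and 63.79 TPM with JG342. Its JG342 values were both above its DMSO values by a small margin, and the change of 0.05 ± 0.10 SE had a 95% interval from −0.18 to 0.27 (limma adjusted p 0.783) and a negative sign after scaling to equal medians. Their relatives IKZF4 and IKZF5 were at 2.71 to 3.48 TPM and 14.07 to 15.36 TPM, and IKZF2 was too low to be fitted. Neither IKZF4 nor IKZF5 passed in limma, and 0 of the 2 had an unadjusted p under 0.05.

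CRBN, the receptor that brings IKZF1 and IKZF3 to the CRL4 ubiquitin ligase in the presence of lenalidomide, was at 21.76 and 20.36 TPM with DMSO and at 21.29 and 24.22 TPM with JG342. The treatments overlapped, and the log2 fold change of 0.10 ± 0.13 SE had a 95% interval from −0.18 to 0.39 (limma adjusted p 0.603). Of the 22 genes of the CRL4 ligase, its E2 enzymes and its neddylation cycle, all were fitted and 0 passed in limma, beside 18.4% of all genes. An unadjusted p under 0.05 was found for 4, all of them lower, beside 4044 of all 12042 fitted genes. The same number of the 22 passed with the replicate block, where 34.9% of all genes passed. Scaling to equal medians gave 1, and the block with equal medians, where 35.1% of all genes passed, gave 6. The scaffold adaptor DDB1 was at 136.98 to 167.95 TPM, and CUL4A, the cullin, at 40.92 to 43.56 TPM. The largest value was −0.41 for the cullin exchange factor CAND1 (limma adjusted p 0.0609), which passed with the replicate block (limma adjusted p 0.000538).

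Of 12 other proteins that cereblon drugs can direct to degradation, 11 were fitted and 2 rose, or 18.2% beside 18.4% of all genes. CSNK1A1, the kinase that lenalidomide depletes in myelodysplastic cells, rose from 98.92 and 106.59 TPM to 154.60 and 131.17 TPM, by 0.47 ± 0.11 SE (limma adjusted p 0.0202). ZMYM2, a zinc finger protein of repressor complexes, rose from 11.13 and 11.92 TPM to 17.37 and 15.19 TPM, by 0.46 ± 0.14 (limma adjusted p 0.0479). GSPT1, a translation termination factor, was at 95.76 and 110.94 TPM and then at 83.75 and 82.25 TPM, a change of −0.31 that did not pass (limma adjusted p 0.0758). None of the 11 passed without DMSO replicate 1, without DMSO replicate 2 or without JG342 replicate 1. None passed either without the filter on low values or without the trend, and quantile normalization left 1. With the replicate block, where 34.9% of all genes passed, 7 did, 4 higher and 3 lower, GSPT1 among them (limma adjusted p 0.005). Scaling to equal medians gave 1 higher and 1 lower. With the block and equal medians, where 35.1% of all genes passed, 8 did, 4 in each direction.

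POU2AF1, the B cell coactivator of the octamer factors, was at 280.74 and 267.70 TPM with DMSO and at 273.21 and 221.91 TPM with JG342. JG342 replicate 1 lay between the DMSO libraries and JG342 replicate 2 below them. The change of −0.15 ± 0.11 SE had a 95% interval from −0.41 to 0.10 (limma adjusted p 0.376), and it ran from −0.30 to −0.0049 without each library in turn. Its DNA-binding partners POU2F1 and POU2F2 stood at 8.79 to 10.12 TPM and 4.22 to 8.95 TPM, and neither passed.

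MAF was at 323.28 and 320.44 TPM with DMSO and at 270.20 and 202.99 TPM with JG342. Both JG342 libraries were below both DMSO libraries, and they differed from each other by more than the nearer one differed from DMSO. The mean fell from 321.86 ± 2.01 TPM (SD, n = 2) to 236.595 ± 47.5 TPM, or 0.735 times the DMSO level. The log2 change was −0.46 ± 0.13 SE, with a 95% interval from −0.75 to −0.16 (limma adjusted p 0.0417). It was −0.45 without DMSO replicate 1 (limma adjusted p 0.146), −0.46 without DMSO replicate 2 (0.156) and −0.25 without JG342 replicate 2 (0.173). Without JG342 replicate 1 it was −0.66 (limma adjusted p 0.00486). After quantile normalization it was −0.39 (limma adjusted p 0.0898).

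Of 6 genes known as MAF targets in myeloma, 5 were fitted and DEPTOR passed, or 20% beside 18.4% of all genes. DEPTOR, an inhibitor of mTOR kinase, fell from 169.38 and 182.88 TPM to 113.54 and 89.62 TPM, by −0.80 ± 0.12 SE (limma adjusted p 0.00400). The chemokine receptor CCR1 was at 307.84 and 245.10 TPM and then at 222.78 and 182.93 TPM, a change of −0.44 (limma adjusted p 0.0517), and it passed with the replicate block. The list's count was 2 without JG342 replicate 1. ITGB7, an integrin that holds myeloma cells in the marrow, was at 7697.34 to 10036.8 TPM and overlapped between treatments. Cyclin D2 (CCND2) was at 386.57 and 366.44 TPM with DMSO and at 360.83 and 352.77 TPM with JG342, at −0.08 (limma adjusted p 0.582). Of the other MAF family factors, MAFG, MAFF, MAFK and NRL were fitted and 0 of the 4 passed in limma. MAFK, at −0.35, was the 1 gene of these with an unadjusted p under 0.05, and it passed with the block.

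Other factors of B and plasma cells were listed for 24 genes, of which 22 are in the table and 18 were fitted. Of these 4 rose and 1 fell, or 27.8% beside 18.4% of all genes. KLF2, a factor that IRF4 is known to induce in myeloma, fell from 56.81 and 57.03 TPM to 34.95 and 42.96 TPM, by −0.54 ± 0.12 SE (limma adjusted p 0.0179). RUNX1, a factor of blood cell development, rose from 10.87 and 11.66 TPM to 16.19 and 20.22 TPM, by 0.64 ± 0.15 (limma adjusted p 0.0192). The others that rose were BHLHA15 (Mist1, a factor of secretory cells), BATF (a binding partner of IRF4) and FOXO1, by 0.51, 0.59 and 0.65. The count was 0 without DMSO replicate 1 or without DMSO replicate 2 and 3 without JG342 replicate 2. It was 0 without the filter on low values, 3 after quantile normalization and 8 with the replicate block, where 34.9% of all genes passed. Scaling to equal medians gave 3 higher and 3 lower, and the block with equal medians, where 35.1% of all genes passed, gave 5 and 5. Quantile normalization gave 2 higher and 1 lower. What the split depends on was not tested.

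Plasma cell surface and secretory genes were listed for 16 genes, of which 15 were fitted, 5 fell and 1 rose, or 40.0% beside 18.4% of all genes. JCHAIN, which joins IgA and IgM chains, fell from 9907.16 and 10383.5 TPM to 5731.52 and 5430.98 TPM, by −0.86 ± 0.10 SE (limma adjusted p 0.00117). The survival receptor TNFRSF13B (TACI) fell from 252.79 and 240.69 TPM to 170.26 and 173.68 TPM, by −0.52 ± 0.09 (limma adjusted p 0.00633). The other genes that fell were DERL3, GPRC5D and TNFRSF17 (BCMA), by −0.48, −0.39 and −0.44, and CD27 rose by 0.89 from a low level of 2.47 and 3.33 TPM. SDC1 (CD138) and CD38 overlapped between treatments and did not pass, at −0.25 and −0.15. With the replicate block SDC1 passed (limma adjusted p 0.00764), with values of −0.30 and −0.21 in the pairs. Without each library in turn the median of the list lay between −0.23 and −0.02. The count of 6 was 2 without the filter on low values, where 828 of all genes passed, and 3 without the trend, where 1508 did. It was 4 after quantile normalization or scaling to equal medians, where 2000 and 2169 of all genes passed. With the replicate block, where 34.9% of all genes passed, it was 11.

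**Figure D4:**
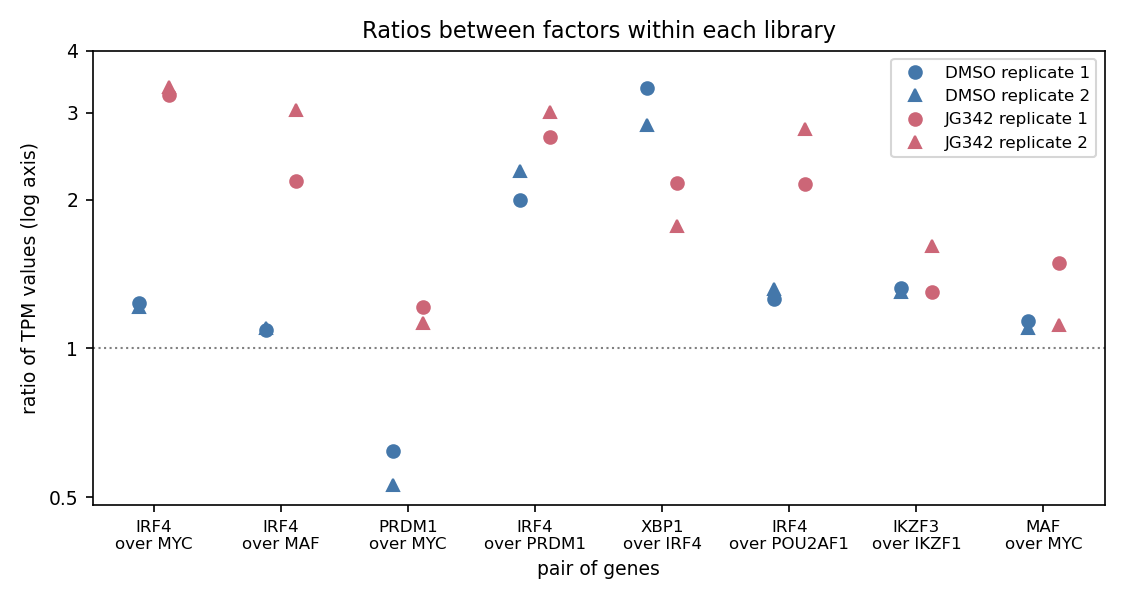
Ratios of TPM values between pairs of the genes within each library, on a log axis, with 1 point per library and a dotted line at 1. The ratio of IRF4 to MYC is 1.24 and 1.21 with DMSO and 3.25 and 3.38 with JG342, with no overlap.

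Ratios between these genes within a library do not depend on how libraries are scaled. They were computed for 8 pairs, which were chosen after the values had been seen. IRF4 over MYC was 1.24 and 1.21 with DMSO and 3.25 and 3.38 with JG342, a difference of 1.44 on the log2 scale. PRDM1 over MYC was 0.62 and 0.53 with DMSO and 1.22 and 1.13 with JG342, so that MYC was the more abundant of these transcripts with DMSO and PRDM1 with JG342. XBP1 over IRF4 went from 3.36 and 2.83 to 2.16 and 1.77. IRF4 over MAF went from 1.09 and 1.10 to 2.18 and 3.03, where the JG342 libraries differed widely. The ratios of IKZF3 over IKZF1 and of MAF over MYC overlapped between treatments. For each ratio the smallest p that an exact permutation test allows is 0.33.

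**Figure D5:**
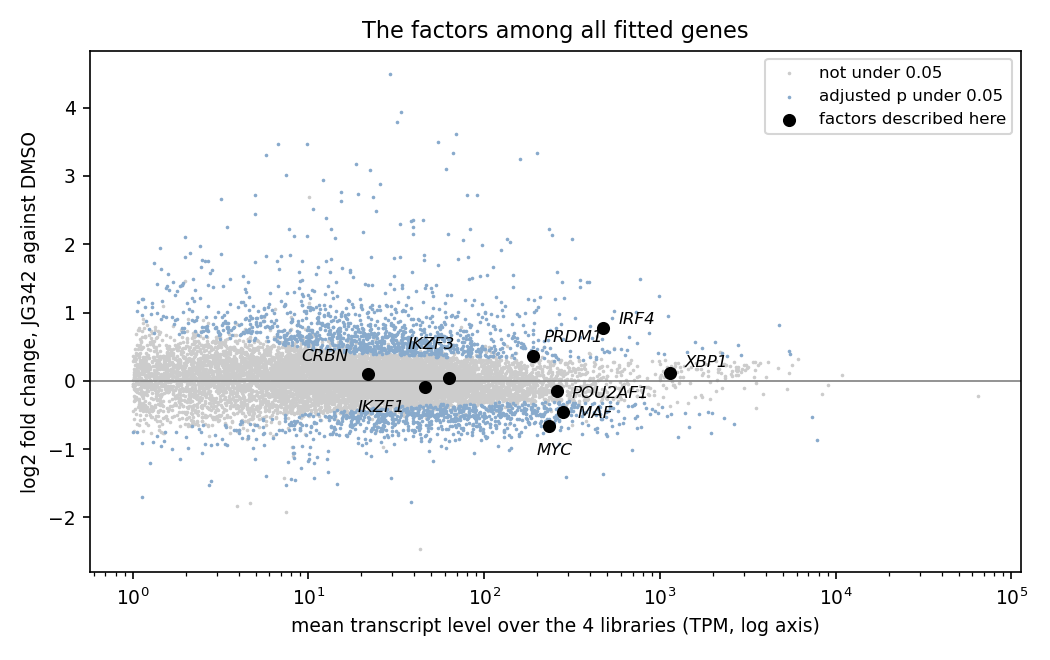
Log2 fold change, JG342 against DMSO, against the mean level over the 4 libraries in TPM on a log axis, for all 12042 fitted genes, with genes past the threshold in blue and the 9 fitted factors in black. Of the 9 factors IRF4, at 0.77, and MYC, at −0.66, lie farthest from 0, and XBP1 is the most abundant.

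Among the 9 fitted genes, 5 had no overlap between treatments, 3 with JG342 above (IRF4, PRDM1 and IKZF3) and 2 with JG342 below (MYC and MAF). Non-overlap was found for 62.1% of all fitted genes, 34% with JG342 above and 28.2% with JG342 below, so with 2 libraries each it does not set a gene apart. The summed level of the 10 genes was 2736.14 and 2510.89 TPM with DMSO and 2942.08 and 2644.37 TPM with JG342, and these ranges overlapped. In the fit with a replicate block the same 4 genes passed and no other, where 34.9% of all genes passed, or 35.1% with the block and equal medians.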

How the data were processed

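RNA sequencing of total RNA gave 4 libraries, and the titles put 2 in each treatment. The authors normalized their reads to 1 value per gene and library before they deposited the table, and its unit is read here as TPM: the values carry 2 decimals and sum to 994463 to 994718 in each library. The submitters' processing notes name HISAT2 2.0.4, Bowtie2 2.2.5 and RSEM 1.2.12, without their roles. The genome build, annotation, filters and whether a value covers 1 transcript or the whole gene are not given in the sources used here. Reads that a gene shares with a pseudogene or relative were not examined.

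Values were analysed as log2(TPM + 1) for the 12042 genes that averaged 1 TPM or more, leaving out 4015. Limma 3.58.1 in R 4.3.3 (lmFit, eBayes with trend) compared JG342 with DMSO with no other term, two-sided, Benjamini-Hochberg adjusted over all fitted genes, threshold 0.05. It had 2 residual and 6.89 prior degrees of freedom, and was tested on simulated data. Since TPM keeps no depth, counting intervals were not given. Gene lists were described by counts and medians, without a set test. Alternatives were other pseudocounts, filters, scalings and variance models, a replicate block, and omission of each library.

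Same-numbered libraries share a prefix in their sample descriptions, and their deviations from the treatment means correlated at a Pearson r of 0.27. The numbers were therefore taken as pairs in the replicate block and in the differences between same-numbered libraries. The main fit, which gave the calls, did not use the pairs. With the block the prior degrees of freedom were infinite, so that each gene's variance came from its level alone.

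The members and lists were chosen with earlier results of these data known. Named genes were the 10 members, the 2 genes of each list with the smallest p among those past the threshold, and the 3 genes nearest to IRF4. Other genes named in the lists were chosen after their values were seen. Promoters came from RefSeq GRCh38.p14 and were matched by symbol, with MYC left out. Values of 3 listed genes are not reported here.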

Additional observations from a re-analysis of the deposited data

Results flagged for a closer look

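CSF1R, a receptor of myeloid cells, was listed at 0 in both DMSO libraries and at 0.06 and 0.05 TPM in the JG342 libraries (mean 0.055 TPM). It was looked at because it lies under the filter on low values and appears with JG342 alone; it was the 1 such gene among 26 listed genes left out as low.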

How the results depend on the processing

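Over all genes 2221 passed, 58.7% of them higher. After scaling to equal medians 44.6% of 2169 were higher, and after quantile normalization 50.8% of 2000 were. The count was 828 without the filter on low values, 4207 with the replicate block and 4226 with the block and equal medians (41.6% higher); it was 767 to 1825 when 1 library was left out. Of the members, 4 passed, and 2 (IRF4 and MYC) without the filter on low values or without the trend in the variance model; 2 to 3 passed when 1 library was left out. The cause was not tested. The replicate block changed no call among the members, with 4 passing. Of 117 member fold changes under the alternatives, 100 kept direction and side of the threshold, 13 lost the call (PRDM1 and MAF) and 4 changed sign, none of them called: IKZF3 at −0.0188 with equal medians, with and without the replicate block, XBP1 at −0.00775 without DMSO replicate 2 (up to 0.24 over the omissions) and IKZF1 at 0.0649 without JG342 replicate 2 (down to −0.25). Of 182 list counts, 108 stayed within 1.5 times and 74 did not. The count over all genes moved under these settings as well, as given above, and was 1508 without the trend. Depth cannot be read from TPM, so what it limits for PAX5 and other low genes is unknown. DESeq2 and edgeR were not run, since the table holds no counts.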
